A study of Drosophila melanogaster with 39 samples.

Results

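The Cul4 sites that *eff* knockdown leaves on chromatin were compared with those that *cul4* knockdown leaves in *Drosophila* Kc cells. The comparison rests on 6 of the 30 peak lists of the series, 3 libraries of each knockdown, all made with a rabbit antibody against human Cul4. Peaks were chosen by the labels of their libraries and not by their values. The 6 lists hold 14329 of the 136434 peaks of the series, and peaks that overlapped by at least 1 bp were merged into 5551 regions.

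Kc167 cells, a line of hemocyte (blood cell) type derived from embryos, were transfected with dsRNA against *eff*, with dsRNA against *cul4*, or with *mcherry* dsRNA as the control, and kept for 4 d at 25 °C before chromatin immunoprecipitation. The series has 39 libraries of 1 cell line, including CP190, Su(Hw) and input libraries, and its labels call the 3 libraries of a group biological replicates. The *cul4* knockdown removes the antigen of the antibody itself, whereas the *eff* knockdown removes another protein, so the 2 knockdowns are not matched as treatments. Transcript and protein of *eff* and *cul4* are not measured by peak lists, and the extent of either depletion was not analysed here.

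Eff (Effete) is an E2 ubiquitin-conjugating enzyme, which passes ubiquitin to substrates with the help of an E3 ligase. Cul4, a cullin, holds together a family of E3 ligases in which a RING protein recruits the E2 and adaptor proteins choose the substrate. Cul4 ligases work on many nuclear proteins, among them replication and chromatin factors. For Eff, the study names degradation of several proteins in development and the cell cycle, and describes these as unrelated to chromatin. CP190 is an insulator protein that sits at many active promoters, and Su(Hw), with its zinc fingers, recognises the DNA of the *gypsy* insulator.

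Several windows of sequence are shown first, from sites that the knockdowns share and from sites called after either alone. All are 101 bases centred on the summit of the peak with the highest rank, read 5′ to 3′ on the plus strand from the RefSeq genome of *D. melanogaster* release 6, to whose coordinates (dm6) the lists also refer. Capitals mark the 7-base element CAAGCAG or its reverse complement CTGCTTG, or, in the *Atpalpha* window, a 10-base core of the CTCF-type motif (GCGCCA, any base, then CTA). Both patterns were picked after the data had been seen. Sites near *Rtnl1* (chr2L:5001444-5001544), *CG34253* (chr3L:18088218-18088318) and *CheB93b* (chr3R:21408518-21408618) are among the strongest in all 6 lists, and hold the element in 2 or 3 copies.

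Rtnl1: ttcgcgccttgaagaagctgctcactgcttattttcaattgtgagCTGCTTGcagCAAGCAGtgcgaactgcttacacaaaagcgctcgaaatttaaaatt

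CG34253: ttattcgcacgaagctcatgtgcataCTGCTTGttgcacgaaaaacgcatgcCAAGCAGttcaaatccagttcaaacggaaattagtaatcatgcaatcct

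CheB93b: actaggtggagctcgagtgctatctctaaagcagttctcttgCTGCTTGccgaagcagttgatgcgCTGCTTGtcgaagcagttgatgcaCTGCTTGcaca

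Sites near *hec* (chrX:12957741-12957841), *CG17717* (chrX:6589371-6589471) and, inside *CG42541*, nearest to the start of *CG15239* (chrX:3899500-3899600) were called in the 3 *cul4* knockdown lists and in no *eff* knockdown list. They hold the same element in 1 or 2 copies.

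hec: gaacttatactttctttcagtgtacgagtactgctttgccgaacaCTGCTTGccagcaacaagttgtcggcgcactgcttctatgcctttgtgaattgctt

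CG17717: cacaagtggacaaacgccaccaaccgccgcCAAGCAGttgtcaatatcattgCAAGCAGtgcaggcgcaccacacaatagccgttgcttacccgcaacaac

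CG15239: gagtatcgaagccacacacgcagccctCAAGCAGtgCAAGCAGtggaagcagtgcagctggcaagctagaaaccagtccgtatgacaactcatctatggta

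The last windows come from sites called after *eff* knockdown and in no *cul4* knockdown list. The *COX7AL2* site (chr2L:2200258-2200358) was called in the 3 *eff* knockdown lists, the *Atpalpha* site (chr3R:20948155-20948255) in replicates 1 and 3, and the *CG32812* site (chrX:1286992-1287092) in replicate 1 alone. None of them holds the 7-base element.

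COX7AL2: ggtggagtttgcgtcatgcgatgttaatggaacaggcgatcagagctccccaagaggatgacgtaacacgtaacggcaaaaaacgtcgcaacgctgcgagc

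Atpalpha: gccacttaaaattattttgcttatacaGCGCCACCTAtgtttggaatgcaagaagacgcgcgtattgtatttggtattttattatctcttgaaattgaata

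CG32812: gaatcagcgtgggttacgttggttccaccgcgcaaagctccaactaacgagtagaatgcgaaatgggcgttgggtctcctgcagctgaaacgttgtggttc

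The *eff* knockdown lists did not resemble each other in length, whereas the *cul4* knockdown lists did. *eff* knockdown replicates 1, 2 and 3 held 4488, 571 and 424 peaks (1828 ± 2305, mean ± SD, n = 3). *cul4* knockdown replicates 1, 2 and 3 held 3037, 2378 and 3431 peaks (2949 ± 532, n = 3). The difference of -1121 peaks was smaller than the spread between the *eff* libraries (two-sided exact permutation test over libraries, p = 0.4). It was -2451 without *eff* replicate 1 (exact permutation p = 0.1) and -419 without *eff* replicate 3. With 3 libraries against 3, the smallest p that this test can give is 0.1. The 3 rabbit libraries of control cells held 4447, 5355 and 4469 peaks, so *eff* replicate 1 is as long as a control list, and replicates 2 and 3 are far shorter than any other list.

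The lists also differ in the background that the peak caller saw, and this is given here because every call below rests on it. Fold enrichment, the pileup at a summit over the local background, and the p of a peak together imply that background in reads. Its median over peaks was 50.7, 31.2 and 6.97 reads in the *eff* libraries and 33.5, 22.0 and 29.96 reads in the *cul4* libraries. *eff* replicate 3 therefore has the thinnest background of the 6 and the highest median fold, 7.59, against 2.73 and 3.19 in *eff* replicates 1 and 2 and 3.74 to 4.36 in the *cul4* libraries. Scaling every peak to the lowest background of the 6 left 269, 117 and 424 peaks in the *eff* lists and 1104, 1210 and 1553 in the *cul4* lists (exact permutation p = 0.1, groups without overlap).

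**Figure D1:**
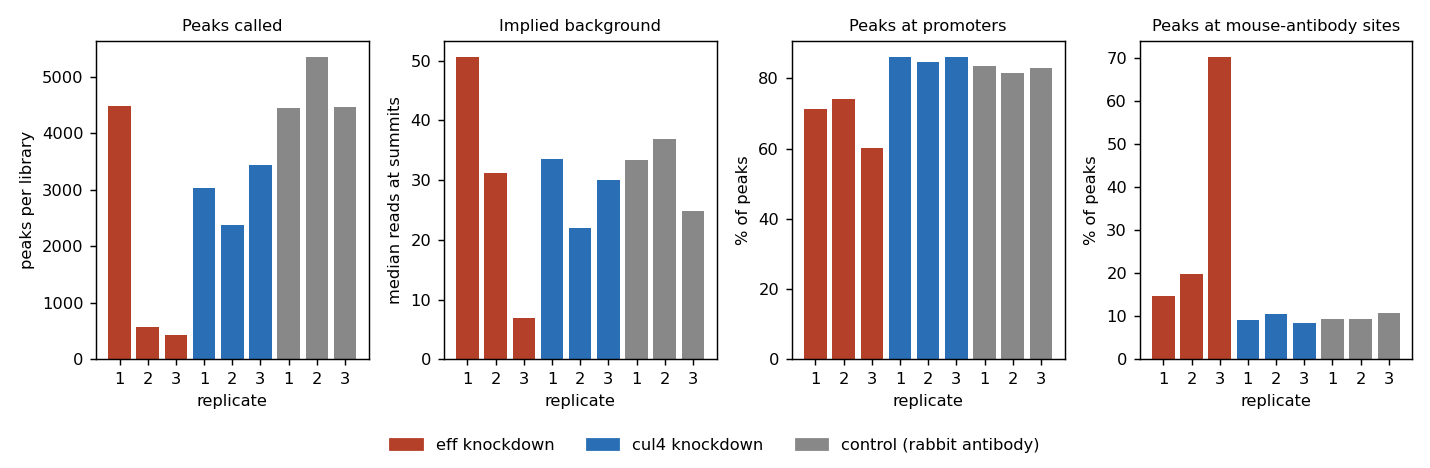
Number of peaks, median background implied at the summits (reads), percent of peaks at promoters and percent of peaks at mouse-antibody sites, 1 bar per library, for *eff* knockdown, *cul4* knockdown and rabbit control libraries 1 to 3. The *eff* bars differ widely among themselves, with 70.3% of the peaks of replicate 3 at mouse-antibody sites, while the *cul4* bars lie closer to each other in every panel.

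The *eff* libraries also differ from the *cul4* libraries in their overlap with the sites of another Cul4 antibody. Control cells were also profiled with a mouse antibody against human Cul4, and 774 sites were called in all 3 of those libraries. Of the peaks of *eff* replicates 1, 2 and 3, 14.6% (95% Clopper-Pearson interval 13.6 to 15.7), 19.8% (16.6 to 23.3) and 70.3% (65.7 to 74.6) lay at such a site, against 9.02%, 10.4% and 8.45% of the peaks of the *cul4* replicates (exact permutation p = 0.1; this share was added after the data had been seen). The intervals cover counting error only. By this share *eff* replicate 2 exceeded replicate 1. The 260 mouse-antibody sites with no peak in any rabbit control library set *eff* replicates 1 and 3 apart from the other 4 libraries. They held a peak at 163 sites (62.7%) in *eff* replicate 1, at 0 in replicate 2 and at 39 (15%) in replicate 3, against 1, 0 and 2 sites in the *cul4* libraries. Whether these libraries differ in antibody, in chromatin or in handling cannot be told apart from the lists. Results below are therefore given for *eff* replicate 1 apart, and for replicate 2 where it differs from the other 2.

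Peaks left after *eff* knockdown lay at promoters less often. By the definition of the study, the TSS and 1500 bp upstream of it, 71.3% (70.0 to 72.6), 74.3% (70.5 to 77.8) and 60.1% (55.3 to 64.8) of the *eff* peaks were at promoters, against 86.2%, 84.6% and 86.2% of the *cul4* peaks. The difference of the means, -17.1 percentage points, has the smallest p that 3 against 3 libraries allow (exact permutation p = 0.1), and the groups do not overlap. Among the 424 strongest peaks of each list it was -7.23, with 63.9%, 71.2% and 60.1% of *eff* against 71.5%, 72.6% and 72.9% of *cul4* peaks, and after scaling to the lowest background it was -26.0. The median distance of a summit to the nearest TSS was 165, 113 and 590.5 bp in the *eff* lists and 68, 71 and 66 bp in the *cul4* lists (p = 0.1, exact permutation). The mean difference of 221 bp was 70.7 bp without *eff* replicate 3. Among the 424 strongest peaks the medians were 614, 133.5 and 590.5 bp against 206.5, 209 and 201 bp, so that the groups overlap (exact permutation p = 0.4). Introns took 17.0%, 9.63% and 12.3% of the *eff* peaks and 6.16%, 6.43% and 6.67% of the *cul4* peaks.

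Overlap with insulator proteins was measured against the CP190 and Su(Hw) sites of the same knockdown. CP190 sites took up 52.9%, 53.1% and 83.7% of the *eff* peaks and 60.4%, 61.8% and 61.2% of the *cul4* peaks (difference 2.14 percentage points, exact permutation p = 1). The sign of that difference rests on *eff* replicate 3, without which it is -8.10. The size depends on which peaks enter: it was 11.7 at a −log10 q of at least 20, 12.3 among the 424 strongest peaks of each list and 26.4 after scaling to the lowest background (88.2% of *eff* against 61.8% of *cul4* peaks on average, exact permutation p = 0.1), and -11.5 without peaks at mouse-antibody peaks. Su(Hw) sites took up 5.04%, 4.20% and 13.7% of the *eff* peaks and 2.07%, 2.27% and 2.19% of the *cul4* peaks, a difference of 5.46 percentage points (exact permutation p = 0.1). It was 2.44 without *eff* replicate 3, 1.06 without peaks at mouse-antibody peaks and 10.98 after scaling. Every *eff* library was above every *cul4* library for Su(Hw), and replicate 3, the list with the largest share of its peaks at mouse-antibody sites, was the highest for both proteins.

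Sites of rabbit control cells, called in all 3 control libraries, covered 62.6%, 96.0% and 78.8% of the *eff* peaks and 91.2%, 94.1% and 87.0% of the *cul4* peaks. Peaks that met no control peak numbered 990, 6 and 41 in the *eff* lists and 50, 20 and 101 in the *cul4* lists. *eff* replicate 2 thus holds few peaks, nearly all at sites of control cells, whereas *eff* replicate 1 holds many that no control list has.

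The libraries were then compared at equal list length, with each list cut to its 424 peaks of highest fold. The *cul4* libraries shared 74.2% to 81.7% of these peaks with each other (mean 78.6%), the *eff* libraries 42.1% to 71.6% (mean 53.5%), and libraries of different knockdowns 31.1% to 47.1% (mean 39.0%). Pairs within a knockdown exceeded pairs across knockdowns by 27.1 percentage points on average (exact permutation of the library labels over 10 splits, p = 0.1, the smallest possible). The highest value among *eff* pairs, 71.6%, belongs to replicates 1 and 3. Replicate 2 shared 46.7% and 42.1% with *eff* replicates 1 and 3, and 45.8%, 47.1% and 44.8% with the *cul4* libraries, so its own group did not stand out for it. With the mouse-antibody libraries, *eff* replicates 1, 2 and 3 shared 59.3%, 13.2% and 54.6% of their strongest peaks on average, and the *cul4* replicates 14.9%, 14.5% and 13.9%. With the rabbit control libraries the means were 42.1%, 43.4% and 38.7% for the *eff* replicates and 62.7%, 62.1% and 60.9% for the *cul4* replicates. So the strongest peaks of all 3 *eff* libraries overlapped the rabbit controls less than those of any *cul4* library did, and only replicates 1 and 3 overlapped the mouse-antibody libraries by more than 50%.

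**Figure D2:**
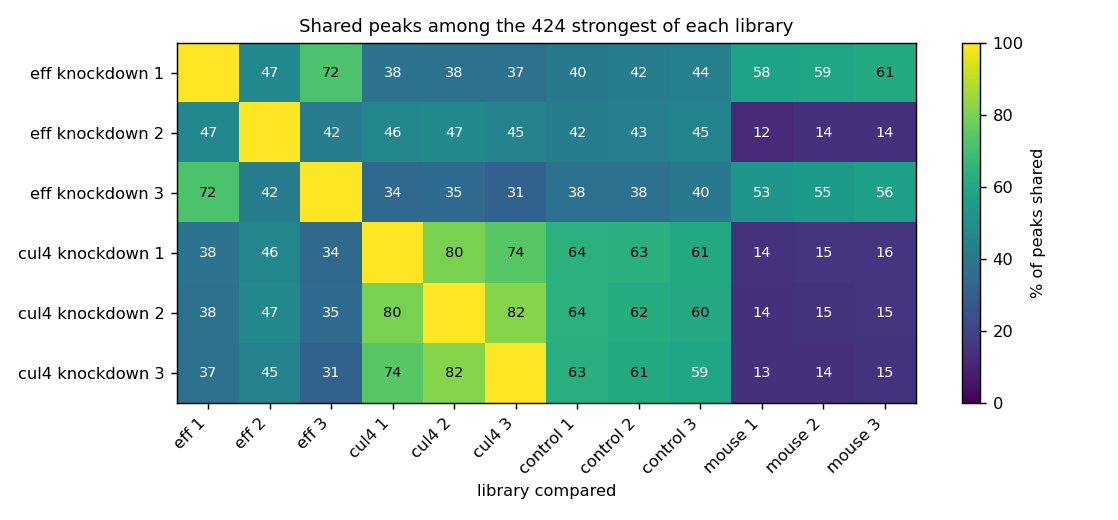
Percent of peaks shared between libraries (rows and columns) when each list is cut to its 424 peaks of highest fold, from 0 (dark) to 100 (bright). The 3 *cul4* libraries form a block between 74.2% and 81.7%, and *eff* replicates 1 and 3 share more with each other (71.6%) and with the mouse-antibody libraries than *eff* replicate 2 does.

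Merging the 6 lists showed which sites each knockdown leaves. A peak in all 3 *cul4* lists and in no *eff* list was found at 412 regions, 7.42% of the 5551. The opposite pattern, all 3 *eff* lists and no *cul4* list, was found at 9 regions (0.162%), and all 6 lists held a peak at 183 regions (3.3%). These are counts of calls and carry no chance test. The commonest pattern was *eff* replicate 1 and no other list, with 1794 regions (32.3%), followed by the 3 *cul4* lists with *eff* replicate 1 alone, with 1215 regions (21.9%). *eff* replicates 1 and 2 joined the 3 *cul4* lists at 284 regions, and *eff* replicates 1 and 3 joined them at 63. Outside the *cul4* lists, *eff* replicates 1 and 3 shared 111 regions and replicates 1 and 2 shared 32. Without *eff* replicate 1 the *cul4* lists alone held 1642 regions in place of 412, since replicate 1 was the only *eff* list with a peak at 1215 regions of the 3 *cul4* lists. It was 690 without *cul4* replicate 2. The *eff* lists alone held 120 regions without *eff* replicate 2 and 41 without *eff* replicate 3, and the sites of all lists were 467 without *eff* replicate 3.

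**Figure D3:**
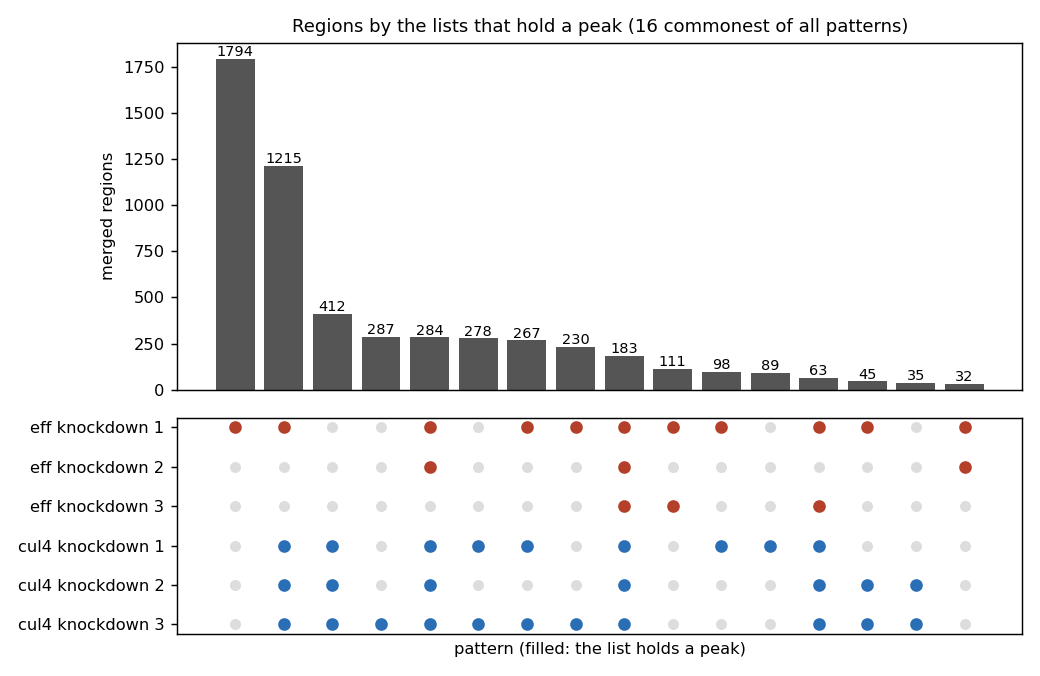
Number of merged regions (bars) for the 16 commonest patterns of calls. A filled circle below a bar marks a list that holds a peak, red for *eff* knockdown and blue for *cul4* knockdown. The highest bars are *eff* replicate 1 alone (1794 regions), the 3 *cul4* lists with *eff* replicate 1 (1215) and the 3 *cul4* lists alone (412).

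At the 2157 sites called in all 3 *cul4* lists, *eff* replicate 1 had a peak at 1745 (80.9%, 79.2 to 82.5), replicate 2 at 467 (21.7%, 19.9 to 23.4) and replicate 3 at 246 (11.4%, 10.1 to 12.8). Every one of the calls of replicates 2 and 3 at these sites was also a call of replicate 1. The strength of a site in the *cul4* lists, taken as its mean percentile of fold within each list, sorted replicates 2 and 3 but hardly replicate 1. In the weakest 10% of the sites, *eff* replicates 1, 2 and 3 had a peak at 75.5%, 9.72% and 4.17% of sites, and in the strongest 10% at 83.3%, 64.8% and 51.4%. The sites with no *eff* peak made up 24.5% of the weakest and 16.7% of the strongest such group.

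**Figure D4:**
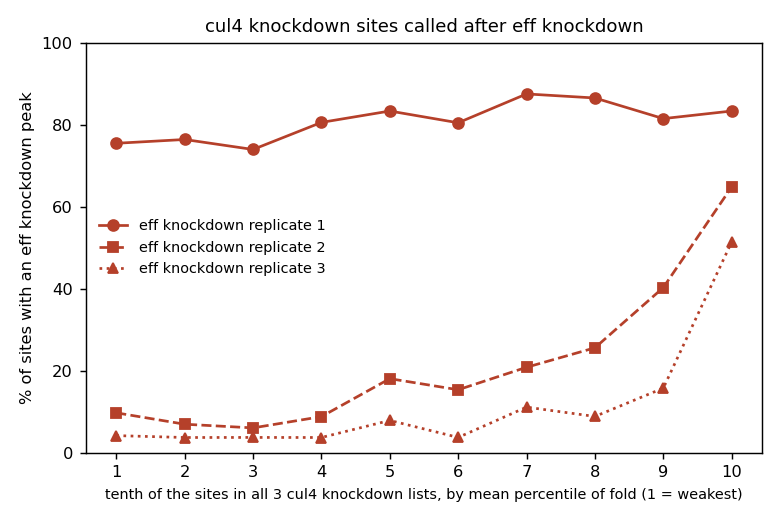
Percent of the 2157 sites called in all 3 *cul4* knockdown lists that hold a peak in each *eff* knockdown library, in 10 equal groups by mean percentile of fold in the *cul4* lists (1 is the weakest). Replicate 1 stays between 73.9% and 87.5% throughout, while replicates 2 and 3 climb to 64.8% and 51.4% in the strongest group.

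The 183 sites of all 6 lists were strong in most libraries. Their median percentile of fold was 96.4, 80.4 and 59.0 in the *eff* lists and 94.0, 93.4 and 93.9 in the *cul4* lists. Promoters made up 74.9% of them (95% interval 67.9 to 81.0), CP190 sites of *eff* knockdown cells 80.9%, and all 183 were sites of rabbit control cells. Mouse-antibody sites made up 51.9%, against 11.9% of all 5551 regions.

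Among the 10 strongest of these, 8 hold the 7-base element and all 10 overlap CP190 in both knockdowns. The *Rtnl1* site lies inside that gene and is annotated as promoter. *Rtnl1* encodes a reticulon that shapes the endoplasmic reticulum. The site had folds of 10.6, 14.4 and 22.9 in the *eff* lists and 14.9, 23.0 and 16.6 in the *cul4* lists. It was the strongest peak of *eff* replicates 1 and 2. The site near *CG34253* had folds of 10.1, 14.2 and 28.6 in the *eff* lists and 15.6, 20.6 and 12.6 in the *cul4* lists. *CheB93b*, a member of a family of chemosensory proteins, had folds of 7.86, 10.0 and 19.3 in the *eff* lists and 12.7, 17.6 and 11.2 in the *cul4* lists. These sites ranked near the top of every list, and the folds of *eff* replicate 3 stand on its thin background. The other 7 lie near *dpr2*, a cell surface protein of the immunoglobulin family, *Set2*, the histone H3K36 methyltransferase, *toc*, *dachs*, an atypical myosin of growth control, 2 tRNA genes (initiator methionine and alanine) and *lncRNA:CR43252* inside the Hox gene *Antp*. The alanine tRNA gene and its copies share sequence, and calls there are uncertain.

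The 412 sites of the *cul4* lists alone were of middling strength and mostly at promoters of control sites. Their median percentile of fold was 55.2, 47.4 and 61.6 in *cul4* replicates 1, 2 and 3. Promoters made up 80.8% (76.7 to 84.5), sites of rabbit control cells 88.8%, CP190 sites of *eff* knockdown cells 67.7%, and mouse-antibody sites 1.21% (0.395 to 2.81). The median summit lay 72.5 bp from a TSS. Without *eff* replicate 1 the class grows to include sites that replicate 1 kept. The sites with a peak in all 3 *cul4* lists but in neither *eff* replicate 2 nor 3 numbered 1627, with 89.2% at promoters and 4.36% at mouse-antibody sites.

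Some of the sites missing from every *eff* list were among the strongest of the *cul4* lists. The peak near *hec*, a G protein-coupled receptor, had folds of 15.9, 18.2 and 15.5 in the *cul4* lists, and *CG15239* had 14.4, 17.6 and 15.2. The site nearest to *mRpL40*, which lies in an exon of the neural homeobox gene *pros*, had 14.8, 17.4 and 12.5. The site nearest to *GlcAT-I* lies in an exon of *Fas2*, a neural cell adhesion molecule, and had 13.9, 16.3 and 13.6. *CG17717* had folds of 13.6, 13.7 and 10.9. For scale, the weakest peak of *eff* replicates 1, 2 and 3 had folds of 1.40, 2.06 and 2.75, though folds of different libraries stand on different backgrounds. All 10 of the strongest sites of this class hold the 7-base element, all 10 are sites of rabbit control cells, none overlaps a mouse-antibody peak, and 5 overlap CP190 in *eff* knockdown cells. The remaining 5 lie near *lncRNA:CR45441*, *Nep1* (inside the calcium channel gene *Ca-alpha1T*), *CG14304* at *qin*, *lncRNA:CR44933* and *CG11106*.

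The 9 sites of the *eff* lists alone are named in full. A pair lies beside *COX7AL2* on chromosome arm 2L, named for its likeness to a cytochrome c oxidase subunit. The intergenic one, at chr2L:2199616-2200620, had folds of 8.26, 9.30 and 17.4 in the *eff* lists and is a mouse-antibody site. The other, at chr2L:2198438-2199389, had 5.42, 4.37 and 7.19 and is not. The site in an exon nearest to *Loxl1*, a lysyl oxidase-like gene, had folds of 6.15, 6.16 and 12.01. The site nearest to *inc*, which encodes an adaptor of the ligase scaffold Cul3 known from sleep control, had 7.05, 4.78 and 12.7. Both overlap CP190 and Su(Hw) sites of *eff* knockdown cells. *CG43245* had folds of 7.14, 5.98 and 8.46. The other 4, near *lncRNA:CR45640*, the Notch target *E(spl)m3-HLH*, the translation factor gene *eIF5B* and *PRAS40*, had folds between 1.97 and 4.63. In *eff* replicate 1 they ranked at percentiles 90.0, 75.8, 33.9 and 0.691 in that order. None ranked above 33.3 in replicates 2 and 3. Every one of the 9 has a peak in at least 2 rabbit control libraries, so none was absent from control cells, and 4 are mouse-antibody sites.

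At 2L, the *COX7AL2* sites belong to a cluster of 5 regions within 10 kb. Another pair in it was called in all 6 lists with higher ranks after *eff* knockdown. At chr2L:2196125-2198381 the folds were 8.37, 9.75 and 29.1 in the *eff* lists and 3.30, 4.63 and 4.79 in the *cul4* lists, and the *eff* replicate 3 peak is the highest of its list. At chr2L:2192971-2194102 the folds were 8.62, 11.9 and 24.4 against 4.17, 6.46 and 6.29. The last region was called in *eff* replicate 1 and *cul4* replicate 3 only. Of the 5 regions, 4 thus had a peak in every *eff* list, and at each of these the *cul4* lists had a lower fold or no peak.

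*eff* replicate 1 alone held 1794 regions, which were weak and often outside the sites of control cells. Their median percentile of fold within that list was 37.3. Promoters made up 53.3% of them (51.0 to 55.7), introns 31.7%, CP190 sites 32.4%, and 48.8% met any rabbit control peak. Mouse-antibody sites made up 13.4%. They dominate its strong end: the 10 strongest regions of this class are all mouse-antibody sites and all CP190 sites, and 9 of them met no rabbit control peak. *CG32812* led with a fold of 5.60, followed by the intron of *dnc*, the cAMP phosphodiesterase gene, with 5.06, and *Wdr62*, a spindle and centrosome gene, with 4.91. The others, near *Cyp318a1*, *CG1789*, *CG34345*, *Nsf2*, *CG43181*, *Exn* and *snRNA:U5:38ABb*, had folds of 4.46 to 4.79.

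The 1215 sites of the 3 *cul4* lists and *eff* replicate 1 alone were the most promoter-bound of the common classes. Promoters made up 92.1% (90.4 to 93.6), mouse-antibody sites 5.43% and CP190 sites 70.9%, with a median summit 68 bp from a TSS. At the strongest of them the fold was lower in replicate 1 than in the *cul4* lists, on a thicker background. *CG13116*, inside the sodium, calcium and potassium exchanger gene *Nckx30C*, had a fold of 4.15 in *eff* replicate 1 and 15.1, 17.9 and 14.2 in the *cul4* lists. *csw*, the phosphatase gene *corkscrew* of receptor tyrosine kinase signalling, had 3.49 against 12.5, 14.8 and 11.3, and *ClC-a*, a chloride channel gene, 3.45 against 13.2, 14.5 and 13.1. Within its own list replicate 1 ranked these sites at percentiles 92.6, 85.9 and 85.2, and the *cul4* lists ranked them at 96.3 to 99.3. Of the 10 strongest, 7 hold the 7-base element.

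Sites shared by *eff* replicates 1 and 3 and by no other list lay mostly at mouse-antibody sites, whereas none of those shared by replicates 1 and 2 did. Of the 111 regions of replicates 1 and 3, 98.2% were mouse-antibody sites, 98.2% CP190 sites, 24.3% Su(Hw) sites and 34.2% sites of rabbit control cells. Of the 32 regions of replicates 1 and 2, 0 were mouse-antibody sites (95% upper limit 10.9%), 12.5% were CP190 sites and 40.6% lay in introns. These 2 classes were taken up after their values were seen. Among the strongest of replicates 1 and 3 were *fuss*, a gene of the Ski and Sno family, with folds of 9.40 and 19.7, an exonic site of the ecdysone-induced *Eip74EF* with 7.89 and 17.8, and the promoter of *Atpalpha*, the sodium pump, with 5.32 and 12.7. Among the strongest of replicates 1 and 2 were *Ugalt*, a nucleotide sugar transporter gene, with 4.01 and 4.11, and an intron of *Mbs*, a myosin phosphatase subunit, with 3.58 and 3.62. At the 63 sites that replicates 1 and 3 shared with the 3 *cul4* lists, 85.7% were mouse-antibody sites, against 4.58% of the 284 that replicates 1 and 2 shared with them.

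The 7-base element CAAGCAG, searched on both strands within 100 bp of the summit, was unequally spread over these classes. It was found at 47.0% of the 183 sites of all 6 lists, 18.2% of the 412 sites of the *cul4* lists alone and 2.29% of the 1794 regions of *eff* replicate 1 alone. The shares were 15.5% at sites of the 3 *cul4* lists with *eff* replicates 1 and 2, and 4.61% at those with replicate 1 alone. Of all regions 6.54% hold it, of windows at every TSS 2.68%, and of windows 1 kb to either side of the summits 3.43%. Where present, it lay close to the summit, at a median of 12.5 bp in the sites of all 6 lists and 12 bp in those of the *cul4* lists alone. The base after the element was T in 90.7% of the sites of all 6 lists that hold it. At least 2 copies of the shorter AAGCAG, which the longer element includes, were found at 44.8% of the sites of all 6 lists, 14.8% of those of the *cul4* lists alone, 4.69% of all regions and 0.946% of windows at a TSS. A match is a description of the sequence and does not name a factor that binds there.

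Among the 424 strongest peaks of each list the element was less common after *eff* knockdown. It was found in 25.7%, 29.5% and 23.0% of them in the *eff* lists, in 46.0%, 46.0% and 44.8% in the *cul4* lists and in 47.4%, 47.4% and 43.4% in the rabbit control lists. All 3 *eff* libraries were below every *cul4* and control library, replicate 2 included. For replicate 3 these are all its peaks. At the 269 *cul4* knockdown sites that hold the element, *eff* replicates 1, 2 and 3 had a peak at 72.1%, 48.3% and 34.9%, and at the 1888 sites without it at 82.2%, 17.8% and 8.05%. The element and the strength of a site move together: in the strongest of 4 equal groups of these sites, the shares were 72.7%, 57.6% and 43.4% for the 205 with the element and 88.6%, 40.1% and 19.8% for the 334 without. The other groups hold 15 to 27 sites with the element and did not all follow that order: in the third group replicate 2 had a peak at 11.1% of sites with the element and 20.5% without, and in the weakest group replicate 1 at 86.7% with and 75.2% without.

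Other patterns were also unequally spread over the classes. The CTCF-type core was found in 21.6% (24) of the 111 regions that *eff* replicates 1 and 3 shared outside the *cul4* lists, among them *Atpalpha* and *Sox21a*, and in 1.37% of all regions and 0.157% of windows at a TSS. By library it was found in 1.65%, 0.876% and 9.95% of *eff* peaks, 0.461%, 0.464% and 0.408% of *cul4* peaks and 10.1% to 11.01% of mouse-antibody peaks. GTGTGACC, part of the M1BP motif, was found at 11.9% of the sites of the *cul4* lists alone, 2.73% of those of all 6 lists, 6.47% of all regions and 4.76% of windows at a TSS. TATCGATA, the DREF and BEAF-32 type element, was found at 5.34%, 0.546%, 3.50% and 5.45% of the same sets. Its share at the sites of the *cul4* lists alone was thus near that of windows at a TSS. GATAAG, which GATA factors recognise, was found at 18.8% of the regions of *eff* replicate 1 alone, 11.98% of all regions and 11.7% of windows at a TSS.

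Relative strength could be tested only where all 6 lists have a value. At the 183 shared sites, log2 fold was centred on the median of each library and compared by limma. Of these sites 52 (28.4%) passed an adjusted p of 0.05 with Benjamini-Hochberg over the 183, 29 of them with a higher relative strength in the *eff* lists and 23 in the *cul4* lists. Centring sets the median of each library to 0, so that the test compares sites relative to that median and says nothing of total binding. It does not rank sites, and differences between libraries in the spread of fold stay in the values. Without centring, 69 sites passed, 14 higher in the *eff* lists and 55 in the *cul4* lists. The number passing was 113 without *eff* replicate 2 and 97 without *eff* replicate 3, which also raised the sites tested to 246 and 467, and 15 on percentiles of fold.

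The 10 sites with the largest differences were all relatively stronger after *eff* knockdown, all at mouse-antibody sites, and none holds the 7-base element. The intergenic site nearest to *Rilpl*, a gene for a Rab-interacting lysosomal protein homologue (chrX:1398480-1400355), had folds of 10.6, 12.7 and 18.3 in the *eff* lists and 2.99, 4.48 and 3.71 in the *cul4* lists. The *eff* values are all above the *cul4* values, replicate 2 included, and the centred difference was 2.46 on the log2 scale (SE 0.19, limma adjusted p = 1.19e-07). An intron of *Appl*, the amyloid precursor protein homologue, had folds of 9.14, 11.4 and 16.2 against 3.29, 4.56 and 4.87 (2.09, SE 0.20, limma adjusted p = 1.87e-06). *CG16989* had 10.4, 12.6 and 25.5 against 5.71, 6.04 and 6.08, a difference of 1.91. *Tlk*, the Tousled-like kinase gene, had 8.30, 9.75 and 12.5 against 3.85, 4.43 and 5.11, a difference of 1.76. The 2 shared *COX7AL2* sites differed by 2.26 and 1.88, *mir-4978* by 2.01, *CG15468* by 1.69, *CG14629* by 1.64 and *lncRNA:CR44588* by 1.59.

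Sites relatively weaker after *eff* knockdown had smaller differences. The 5 lowest, chosen after their values were seen, all hold the element. *Rab10*, a gene of vesicle transport, had folds of 4.20, 4.02 and 5.08 in the *eff* lists and 10.999, 17.2 and 14.5 in the *cul4* lists, a centred difference of -1.08 (SE 0.20, limma adjusted p = 0.000481). *CG13088* had 4.88, 4.44 and 7.75 against 17.3, 20.9 and 13.8, a difference of -1.05. The others were *sncRNA:204* (-0.83), *CG3407* (-0.79) and *smash* (-0.77), a gene of cell junctions. Except at *smash*, no mouse-antibody peak overlaps these sites.

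Of the 86 shared sites with the element, 3 were relatively stronger and 22 weaker after *eff* knockdown, with a median difference of -0.20, and of the 97 without it 26 were stronger and 1 weaker, with a median of 0.17. Over all 183 sites the median was 0.01. At the 95 mouse-antibody sites 23 were stronger and 7 weaker (median 0.19), and at the other 88 sites 6 were stronger and 16 weaker (median -0.15). Without mouse-antibody sites the sites with the element had 1 stronger and 16 weaker of 39 (median -0.45), and those without it 5 stronger and 0 weaker of 49 (median 0.01). The direction depends on centring and scale. Without centring, sites with the element had 0 stronger and 40 weaker (median -0.78), and those without it 14 and 15 (median -0.41). After quantile normalization the counts were 4 and 34 (median -0.26) with the element and 27 and 16 (median -0.008) without. With percentiles of fold the order of the medians reversed. The median difference was 3.48 percentile points with the element and -1.07 without, and 0 of the 86 sites with the element passed. The element goes with strength in the *cul4* lists, since 75 of the stronger sites hold it and 16 do not, and 11 of the weaker sites hold it and 81 do not. Among the stronger sites the median difference was -0.21 with the element and -0.07 without, and among the weaker sites it was 0.16 with the element and 0.18 without.

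**Figure D5:**
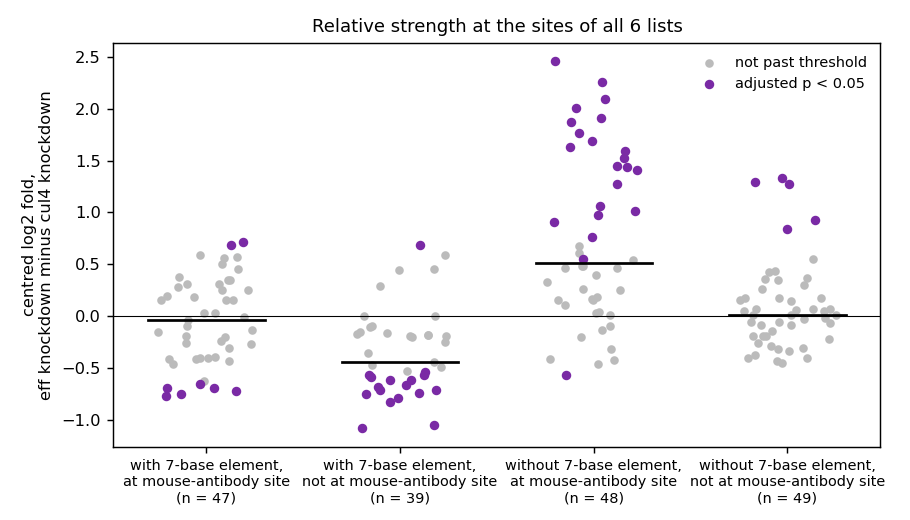
Centred log2 fold, *eff* knockdown minus *cul4* knockdown, at the 183 sites of all 6 lists, split by the 7-base element and by mouse-antibody site. Each point is a site, purple where the limma adjusted p is under 0.05, and black bars are medians (-0.04, -0.45, 0.52 and 0.01 from left to right). The highest points lie at mouse-antibody sites without the element.

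Genes were taken as bound where a peak lay within 1 kb of a TSS. Of 18358 genes, 3984, 622 and 360 were bound in the *eff* lists and 3762, 2973 and 4229 in the *cul4* lists, which is 21.7%, 3.39% and 1.96% of them in the *eff* lists and 20.5%, 16.2% and 23.0% in the *cul4* lists. All 3 *cul4* lists bound 2811 genes (15.3%), the *cul4* lists alone 496 (2.7%), all 6 lists 207 (1.13%), and 861 (4.69%) were bound in any *eff* list and no *cul4* list. Lists of genes are read against these shares. Neighbouring genes can share a peak.

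Fewer cytoplasmic ribosomal protein and proteasome genes were bound in each *eff* list than in any *cul4* list, at the closest 58 against 59 for the former. Of 92 cytoplasmic ribosomal protein genes, 58, 5 and 2 were bound in the *eff* lists and 75, 59 and 78 in the *cul4* lists. All 3 *cul4* lists bound 59 of them, 44 of which *eff* replicate 1 alone among the *eff* lists also bound. Only *RpL22* was bound in all 6 lists, with folds of 4.78, 3.71 and 5.23 in the *eff* lists and 4.34, 4.73 and 6.24 in the *cul4* lists. The *cul4* lists alone bound 10 (10.9%), which is 10 of the 59, and over all genes 496 of 2811. *eff* replicates 2 and 3 bound 5.43% and 2.17% of the 92, against 3.39% and 1.96% of all genes. Among the 10 were *RpL10* with folds of 4.89, 4.91 and 3.51 and *RpS12* with 3.89, 4.62 and 4.41. Of 48 proteasome genes, 8 (16.7%), 1 and 0 were bound in the *eff* lists and 16, 14 and 16 in the *cul4* lists. The *cul4* lists alone bound 9 of the 48 (18.8%, against 2.7% of all genes). They were *Prosbeta1*, *Prosbeta5* and *Prosbeta6* of the catalytic core and *Rpn9*, *Rpn10*, *Rpt2*, *Rpt3*, *Rpt4* and *Rpt5* of the regulatory particle. *Prosbeta5* had folds of 3.79, 3.69 and 3.54 in the *cul4* lists and *Rpn10* 4.11, 4.13 and 3.58. The folds named for both groups were moderate. Of the 14 proteasome genes in all 3 *cul4* lists, *eff* replicate 1 alone among the *eff* lists also bound 5. Whether strength accounts for the missing calls was not tested.

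The ubiquitin and cullin genes included both targets. The promoter of *eff* had a fold of 2.78 in *eff* replicate 1 and 4.82, 4.16 and 5.07 in the *cul4* lists. *Cul4* itself was bound in *cul4* replicate 3 only, with 3.02. Of 33 genes of this list, 15, 3 and 1 were bound in the *eff* lists and 17, 13 and 20 in the *cul4* lists. These are 45.5%, 9.09% and 3.03% against 51.5%, 39.4% and 60.6%. Of all genes, 21.7%, 3.39% and 1.96% were bound in the *eff* lists and 20.5%, 16.2% and 23.0% in the *cul4* lists. The *cul4* lists alone bound 1 of the 33 (3.03%), near the 2.7% of all genes. It was *mahj*, a substrate receptor of Cul4 ligases, with 2.99, 4.04 and 5.56. *eff* replicate 1 alone bound *pic*, the homologue of the Cul4 adaptor DDB1, with 2.74, and *lwr*, the SUMO-conjugating enzyme, with 2.253. They ranked at percentiles 51.5 and 11.1 of its list, and both were bound in the 3 rabbit control libraries. *Uba1*, the ubiquitin-activating enzyme gene, was bound in *eff* replicates 1 and 3 with 3.48 and 5.39 and in the *cul4* lists with 5.27, 4.44 and 5.06, at a mouse-antibody peak.

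Of 29 genes of cell cycle and replication, 13, 1 and 0 were bound in the *eff* lists and 16, 14 and 18 in the *cul4* lists. These are 44.8%, 3.45% and 0% against 55.2%, 48.3% and 62.1%. The shares of all genes were 21.7%, 3.39% and 1.96% against 20.5%, 16.2% and 23.0%. The *cul4* lists alone bound 4 of the 29 (13.8%, against 2.7% of all genes). They were *Orc1* of the origin recognition complex, *PCNA*, the sliding clamp, and *fzr* and *fzy*, activators of the anaphase-promoting complex. *PCNA* had folds of 3.84, 3.91 and 4.19. *stg*, the mitotic Cdc25 phosphatase gene, was bound in *eff* replicates 1 and 2 with 3.92 and 2.94 and in the *cul4* lists with 3.68, 4.82 and 5.80. Of 24 insulator protein genes, 9, 0 and 0 were bound in the *eff* lists and 8, 5 and 11 in the *cul4* lists. These are 37.5%, 0% and 0% against 33.3%, 20.8% and 45.8%. The *cul4* lists alone bound 1 of the 24 (4.17%, against 2.7% of all genes). It was *Dref* with 3.797, 3.43 and 3.53, a peak that it shares with the neighbouring *RpL13*. *eff* replicate 1 alone bound *pita*, *rump* and *su(Hw)* with 2.89, 1.99 and 2.26, at percentiles 62.9, 0.98 and 11.7 of its list. These genes were bound in 2, 3 and 1 rabbit control libraries. *mod(mdg4)*, whose isoform is part of the *gypsy* insulator, had 2.47 in *eff* replicate 1 and 5.99, 5.15 and 4.89 in the *cul4* lists.

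Of 20 heat shock genes, 10, 1 and 1 were bound in the *eff* lists and 11, 11 and 11 in the *cul4* lists. These are 50%, 5% and 5% against 55% in each *cul4* list. For all genes the shares were 21.7%, 3.39% and 1.96% against 20.5%, 16.2% and 23.0%. *Hsp83*, the Hsp90 chaperone gene, was bound in all 6 lists with 3.63, 3.09 and 4.63 in the *eff* lists and 6.13, 5.53 and 5.12 in the *cul4* lists. *Hsp68* and *Hsp70Ba* (10% of the 20, against 2.7% of all genes) were bound in the *cul4* lists alone, with 5.83, 5.87 and 6.20 for *Hsp68*. *Hsp70Ba* has near-identical copies and its calls are uncertain. Of 44 translation initiation genes, 20, 2 and 0 were bound in the *eff* lists and 17, 15 and 20 in the *cul4* lists. These are 45.5%, 4.55% and 0% against 38.6%, 34.1% and 45.5%. Of 29 lamina and nuclear pore genes the counts were 12, 2 and 0 against 12, 9 and 13. These are 41.4%, 6.90% and 0% against 41.4%, 31.0% and 44.8%. Of 73 mitochondrial ribosomal protein genes they were 20, 2 and 1 against 17, 14 and 21. These are 27.4%, 2.74% and 1.37% against 23.3%, 19.2% and 28.8%.

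Some genes of blood cell identity were bound in both knockdowns. Of 14 hemocyte genes, 7, 3 and 2 were bound in the *eff* lists (50%, 21.4% and 14.3%) and 6 in each *cul4* list (42.9%), shares above those of all genes in every list. The 2 genes of *eff* replicate 3, *Hml* and *ush*, were also bound in the 3 mouse-antibody libraries, as was *Pvr*. Each of those libraries bound 21.4% of the 14 genes, against 4.12%, 4.33% and 3.63% of all genes. *Hml*, hemolectin, was bound in all 6 lists with 6.03, 5.65 and 13.0 in the *eff* lists and 10.1, 17.2 and 14.2 in the *cul4* lists. *ush*, the partner of GATA factors, was also bound in all 6, with 3.33, 3.08 and 4.41 against 4.11, 4.66 and 3.94. *srp*, the GATA factor of blood cells, was bound in *eff* replicates 1 and 2 with 2.93 and 2.73 and in the *cul4* lists with 4.49, 5.95 and 7.095. *crq*, *Pvr* and *Ser* were bound in the 3 *cul4* lists and in *eff* replicate 1, and *Pxn* in *eff* replicate 1 alone. The rest of the 14 were bound in none of the 6 lists. A peak at a promoter is no measure of transcript. Of 10 basement membrane genes, whose products hemocytes secrete, 6, 3 and 1 were bound in the *eff* lists and 4, 4 and 4 in the *cul4* lists. These are 60%, 30% and 10% against 40% in each *cul4* list. The laminin gene *LanB2* was bound in all 6, with 7.80, 7.62 and 11.3 against 13.5, 17.1 and 12.1, and *LanA* in *eff* replicates 1 and 2, with 3.08 and 3.33 against 8.03, 7.09 and 7.39. *SPARC* and *Pxn* were bound in *eff* replicate 1 alone. Gene families silent in most cells were rarely bound: of 186 chemoreceptor genes 5, 1 and 1 in the *eff* lists and 6 in each *cul4* list, and of 94 cuticle protein genes 2, 0 and 0 against 0, 0 and 1.

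tRNA genes, a list added after the data had been seen, were bound above the share of all genes in the *eff* lists and below it in the *cul4* lists. Of 312 such genes, 101, 26 and 22 were bound in the *eff* lists and 39, 38 and 40 in the *cul4* lists. In the *eff* lists these are 32.4%, 8.33% and 7.05%, against 21.7%, 3.39% and 1.96% of all genes. In the *cul4* lists they are 12.5%, 12.2% and 12.8%, against 20.5%, 16.2% and 23.0%. Any *eff* list and no *cul4* list bound 61 of them (19.6%, against 4.69% of all genes), at 32 regions, and 57 of the 61 were bound in *eff* replicate 1 alone among the *eff* lists. Many tRNA genes are near-identical copies in clusters, so reads there are shared or dropped and a cluster counts several times. *eff* replicates 2 and 3 bound fewer tRNA genes than any *cul4* library, but from lists a fraction as long.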

How the data were processed

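Cul4 was profiled by ChIP-seq with a rabbit antibody in 3 *eff* knockdown and 3 *cul4* knockdown libraries. According to the methods and the submitters' processing notes, the authors used cutadapt 3.4 for trimming, Bowtie2 2.4.2 for alignment to release 6 (dm6), SAMtools 1.12 and Picard for filtering and duplicates, and MACS2 2.2.7.1 for peaks against input. The deposited lists hold 1 library each and were used without a blacklist. For each peak the authors give a fold (ratio) over local background, −log10 p and −log10 q of MACS2, and a score, the whole-number form of −log10 q. The fold was used for strength, the −log10 p with the fold for the implied background under the Poisson model of MACS2, and the deposited summit offset for positions. The score was used only as a check on −log10 q. Reads were not used, so the depth is known only through that background.

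Peaks of the 6 lists were merged at an overlap of 1 bp, and the strongest peak of a list stood for a region. Regions were annotated against Ensembl release 115 (18358 genes, without transposable elements) in the order promoter, exon, intron and intergenic. Sites of CP190, Su(Hw), rabbit control and mouse-antibody libraries were those called in all 3 libraries. Gene lists numbered 13, beside the tRNA genes added after the data had been seen, and 4 of their symbols matched no gene. Motifs were counted on both strands in windows of 201 bp around summits. Exact permutation tests over libraries were two-sided, and log2 fold at shared sites was compared by limma 3.58.1, which was also tested on simulated data. Intervals are 95% Clopper-Pearson. Python 3.11.15, numpy 2.4.6, pandas 2.3.3, scipy 1.17.1, matplotlib 3.10.9 and R 4.3.3 were used.

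Regions were named by the gene with the nearest TSS. The 10 regions of highest mean percentile in each class of calls, the 10 sites with the largest limma difference among those past the threshold, and the genes of the lists are named. Exceptions chosen after their values were seen are marked. The members, lists and tests were chosen with earlier results of these data known. Alternatives were another threshold, overlap, normalization, list length and background, each library left out, and 2 added after seeing the data.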

Additional observations from a re-analysis of the deposited data

How the results depend on the processing

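The CP190 difference ran between -8.10 and 7.29 percentage points with a library left out, and turned negative without *eff* replicate 3 (-8.10), against CP190 sites of control cells (-3.39) and without peaks at mouse-antibody peaks (-11.5, added after seeing the data). The peak count, promoter, TSS distance, Su(Hw) and sharing results kept their direction under every alternative run, and no such test can pass 0.05 with these numbers of libraries. Their sizes moved: with a library left out the peak count difference ran from -2451 to -419, the promoter difference from -19.9 to -12.9 percentage points, the TSS distance difference from 70.7 to 309 bp and the Su(Hw) difference from 2.44 to 7.18 percentage points, and without peaks at mouse-antibody peaks the last 2 were 58.3 bp and 1.06 percentage points. Sites of the *cul4* lists alone numbered 412 to 1642 with a library left out (1642 without *eff* replicate 1, 690 without *cul4* replicate 2), 730 scaled to the lowest background, 109 among the 424 strongest peaks, 733 where 2 libraries sufficed and 1705 against *eff* replicate 2 alone. Sites of the *eff* lists alone numbered 9 to 120 with a library left out (120 without *eff* replicate 2, 41 without *eff* replicate 3), 25 among the strongest peaks, 152 where 2 libraries sufficed, 4 without peaks at mouse-antibody peaks and 51 with *eff* replicate 2 alone. Sites of both numbered 183 to 467 with a library left out (467 without *eff* replicate 3), 116 at a −log10 q of at least 20, 87 scaled, 100 among the strongest peaks, 571 where 2 libraries sufficed, 74 without peaks at mouse-antibody peaks and 471 with *eff* replicate 2 alone. Limma passed 81 sites after quantile normalization, 15 on percentiles, 23 without peaks at mouse-antibody peaks and 35 to 113 with a library left out (113 without *eff* replicate 2, 97 without *eff* replicate 3, from 246 and 467 sites tested). With the replicate number as a block, limma passed 61 sites, and the peak count difference stayed at -1121 (p = 0.5, exact permutation within pairs). Whether the numbers pair the libraries is not known. The deviations of same-numbered libraries correlated at -0.01, 0.20 and -0.16 over the 183 sites, and cross-numbered ones between -0.41 and 0.29. Deviations among so few libraries, at shared sites only, cannot decide it. The causes of these changes were not tested. Lists without reads cannot show binding below the caller's threshold, so a missing call is not an absence of Cul4, and the thin background of *eff* replicate 3 limits it most.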
